A study of Mus musculus with 12 samples.

Results

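The mitochondrial respiratory chain was examined as the genes whose symbols begin with Nduf, Uqcr or Atp5, or with Cox4, Cox5, Cox6, Cox7 or Cox8, together with Sdha, Sdhb, Sdhc, Sdhd, Cyc1 and Cycs. On the arrays 88 of the 23279 genes fell under this rule. They comprised 6 core subunits, 27 accessory subunits and 8 assembly factors of complex I, 4 subunits of complex II, 9 genes of complex III with cytochrome c, 19 of complex IV, 12 of complex V and 3 features named as pseudogenes. Ndufa4 and Ndufa4l2 carry a complex I name and were placed with complex IV, where their products are now assigned. The chain subunits encoded by the mitochondrial genome were not analysed here.

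The 12 arrays, of 1 colour each, hold RNA of monocytes sorted from blood of mice 6 to 8 weeks old for CD11b, CD115 and high Ly6C. By genotype label 6 arrays were TRIM33 and 6 were WT, and every array carried the strain label C57BL/6 LyzCre. LyzCre denotes a Cre recombinase driven from a lysozyme locus, a locus used by myeloid cells; the labels leave it unstated for WT mice beyond that strain name. In each genotype 2 arrays were titled as a mix (TRIM33 replicates 2 and 3, WT replicates 5 and 6), without a statement of what was mixed. Nothing in the labels ties an array to its own animal. The p-values therefore reflect only variation from array to array, some of which may be technical.

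The respiratory chain passes electrons from NADH, through complex I, and from succinate, through complex II, to ubiquinone, then through complex III and cytochrome c to complex IV, which reduces oxygen. Complexes I, III and IV pump protons across the inner mitochondrial membrane, and complex V, the ATP synthase, uses the gradient to make ATP. In monocytes and macrophages the chain supplies ATP, and its balance with glycolysis is known to shift with activation.

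Trim33, the targeted gene, had log2 values of 6.06 to 6.23 in TRIM33 and 6.81 to 7.05 in WT arrays, without overlap. Sex-linked genes divided the arrays another way, 6 and 6, with 3 of each genotype on either side. Xist, the RNA of X inactivation, read 9.01 to 10.2 on 6 arrays, called the Xist set here (TRIM33 replicates 4 to 6 and WT replicates 1 to 3). On the other 6, called the Y set (TRIM33 replicates 1 to 3 and WT replicates 4 to 6), Xist read 3.36 to 3.64 and the Y-linked Eif2s3y 8.09 to 8.47. All 4 mixes lay in the Y set. The markers of the sort were bright in both sets, with Ly6c2 at 12.20 to 12.45 (Xist set) and 12.27 to 12.55 (Y set). Csf1r, which encodes CD115, read 9.73 to 10.12 and 10.88 to 11.09, without overlap. Itgam, which encodes CD11b, read 9.40 to 9.88 (Xist set) and 10.41 to 10.68 (Y set), also without overlap. The sets also differed in cell cycle genes, of which 14 of 14 measured members read higher on every Xist-set array, with a mean log2 level of 9.40 to 9.48 against 4.67 to 5.74. Array medians lay between 4.16 and 4.25, and the number of arrays limits the precision.

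Promoters are shown for the 3 genes that lead the genotype comparison below, Sdhb, Ndufb5 and Uqcr10, and for 3 further genes of different complexes that hold a searched motif. Nuclear respiratory factor 1 (NRF1), ETS proteins of the GABPA type, YY1 and the estrogen-related receptors (ERR) are known regulators of respiratory chain genes. The sequences are from RefSeq on GRCm38.p6, run from 180 bases before the annotated start to the first 25 bases of the transcript, and are written 5′ to 3′ on the gene's strand with motif matches in capitals.
Sdhb, chr4:140961091-140961295, plus strand: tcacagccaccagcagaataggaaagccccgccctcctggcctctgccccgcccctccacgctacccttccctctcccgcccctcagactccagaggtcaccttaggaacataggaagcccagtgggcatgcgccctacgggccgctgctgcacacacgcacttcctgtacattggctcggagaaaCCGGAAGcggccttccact
Ndufb5, chr3:32736883-32737087, plus strand: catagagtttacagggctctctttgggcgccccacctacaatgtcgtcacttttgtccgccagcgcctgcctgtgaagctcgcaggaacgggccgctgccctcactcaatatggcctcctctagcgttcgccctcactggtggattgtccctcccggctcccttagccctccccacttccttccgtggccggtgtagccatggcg
Uqcr10, chr11:4704320-4704524, minus strand: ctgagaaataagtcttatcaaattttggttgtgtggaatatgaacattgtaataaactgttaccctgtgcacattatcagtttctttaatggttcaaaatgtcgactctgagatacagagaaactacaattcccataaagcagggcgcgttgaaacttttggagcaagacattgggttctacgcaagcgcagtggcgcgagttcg
Cox6a1, chr5:115348934-115349138, minus strand: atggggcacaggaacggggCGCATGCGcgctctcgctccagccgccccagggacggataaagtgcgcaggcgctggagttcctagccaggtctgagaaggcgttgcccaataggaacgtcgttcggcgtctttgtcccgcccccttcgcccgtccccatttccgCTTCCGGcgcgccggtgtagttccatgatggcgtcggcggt
Sdhd, chr9:50603825-50604029, minus strand: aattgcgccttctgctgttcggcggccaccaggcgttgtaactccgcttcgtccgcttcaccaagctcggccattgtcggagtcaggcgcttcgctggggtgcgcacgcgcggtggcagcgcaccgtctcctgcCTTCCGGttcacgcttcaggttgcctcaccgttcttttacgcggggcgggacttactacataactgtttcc
Ndufaf5, chr2:140170466-140170670, plus strand: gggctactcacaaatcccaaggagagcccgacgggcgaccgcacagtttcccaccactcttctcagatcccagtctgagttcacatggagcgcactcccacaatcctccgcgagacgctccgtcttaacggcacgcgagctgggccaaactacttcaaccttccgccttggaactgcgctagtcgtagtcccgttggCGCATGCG
The capitals mark the ETS core CCGGAAG, read as CTTCCGG where it lies on the other strand, and the NRF1 core CGCATGCG. Sdhb holds an ETS core at base 7 from its start, Sdhd one 46 bases before it, and Cox6a1 one 16 bases before it beside an NRF1 core 161 bases before it. Ndufaf5 holds an NRF1 core at base 18 of its transcript. The Sdhd window also holds an ERR motif at base 37, beyond the stretch shown. No searched motif was found in the Ndufb5 and Uqcr10 windows.

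Over whole windows of 250 bases before to 50 after the start, 69 of the 88 members had a RefSeq promoter, 5 of them with more than 1 window. Both strands were searched, and no matches of different motifs overlapped. The NRF1 core was found in 10 members (14.5%, against 2.80% of the 17519 genes on the arrays with such a window), the ETS core in 17 (24.6% against 12.8%), the YY1 motif AAGATGGC in 10 (14.5% against 3.61%), the ERR motif TCAAGGTCA in 2 (2.90% against 0.365%) and the TATA box TATAAA in 7 (10.1% against 14.0%). Among genes with a mean level above the median gene mean of 4.24, 67 members could be set against 9193 genes. The shares were then 14.9% against 4.42% for NRF1, 25.4% against 20.5% for ETS, 14.9% against 5.42% for YY1, 2.99% against 0.337% for ERR and 7.46% against 8.77% for TATA. A match is a run of letters in a window and shows no binding.

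The comparison of genotypes asks whether respiratory chain transcripts differ in monocytes when Trim33 is targeted. No single member passed the test, but most lay slightly higher in the TRIM33 arrays. In limma, 0 of 88 members reached a Benjamini-Hochberg adjusted p under 0.05, where 5 of 23279 genes, 0.0215%, did. The lowest adjusted p of a member was 1.0. With the array set as a block 0 members passed and 0.0387% of all genes did, and the lowest adjusted p of a member was 0.450, for Uqcr10. At an unadjusted p under 0.05, 9 members were higher in TRIM33 and 0 lower without the block (10.2% of members, against 1.27% of all genes higher and 1.8% lower). With the block 11 were higher and 0 lower (12.5%, against 2.44% of all genes higher and 2.84% lower).

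By sign alone, 75 of 88 members had a higher mean in the TRIM33 arrays and 13 a lower one, with a median difference of 0.10 on the log2 scale and a range from -0.18 to 0.40. Over all genes 45.02% were higher and the median was -0.01. Between arrays of a genotype the members' median deviation had an SD of 0.178, which takes in the gap between the sets. The members share the same arrays, so their signs are not separate observations. Some single arrays moved the members' median by over 1.5 times. It was 0.16 without TRIM33 replicate 1, 0.15 without TRIM33 replicate 3 or WT replicate 2, and 0.06 without TRIM33 replicate 4 or TRIM33 replicate 5. These fits had no term for the array set, so leaving out an array also left the genotypes unequal between the sets. The members differed between the sets as well, as described below, so these moves are not those of single arrays alone. In bulk RNA, fewer cells of a type and less RNA per cell cannot be told apart.

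**Figure D1:**
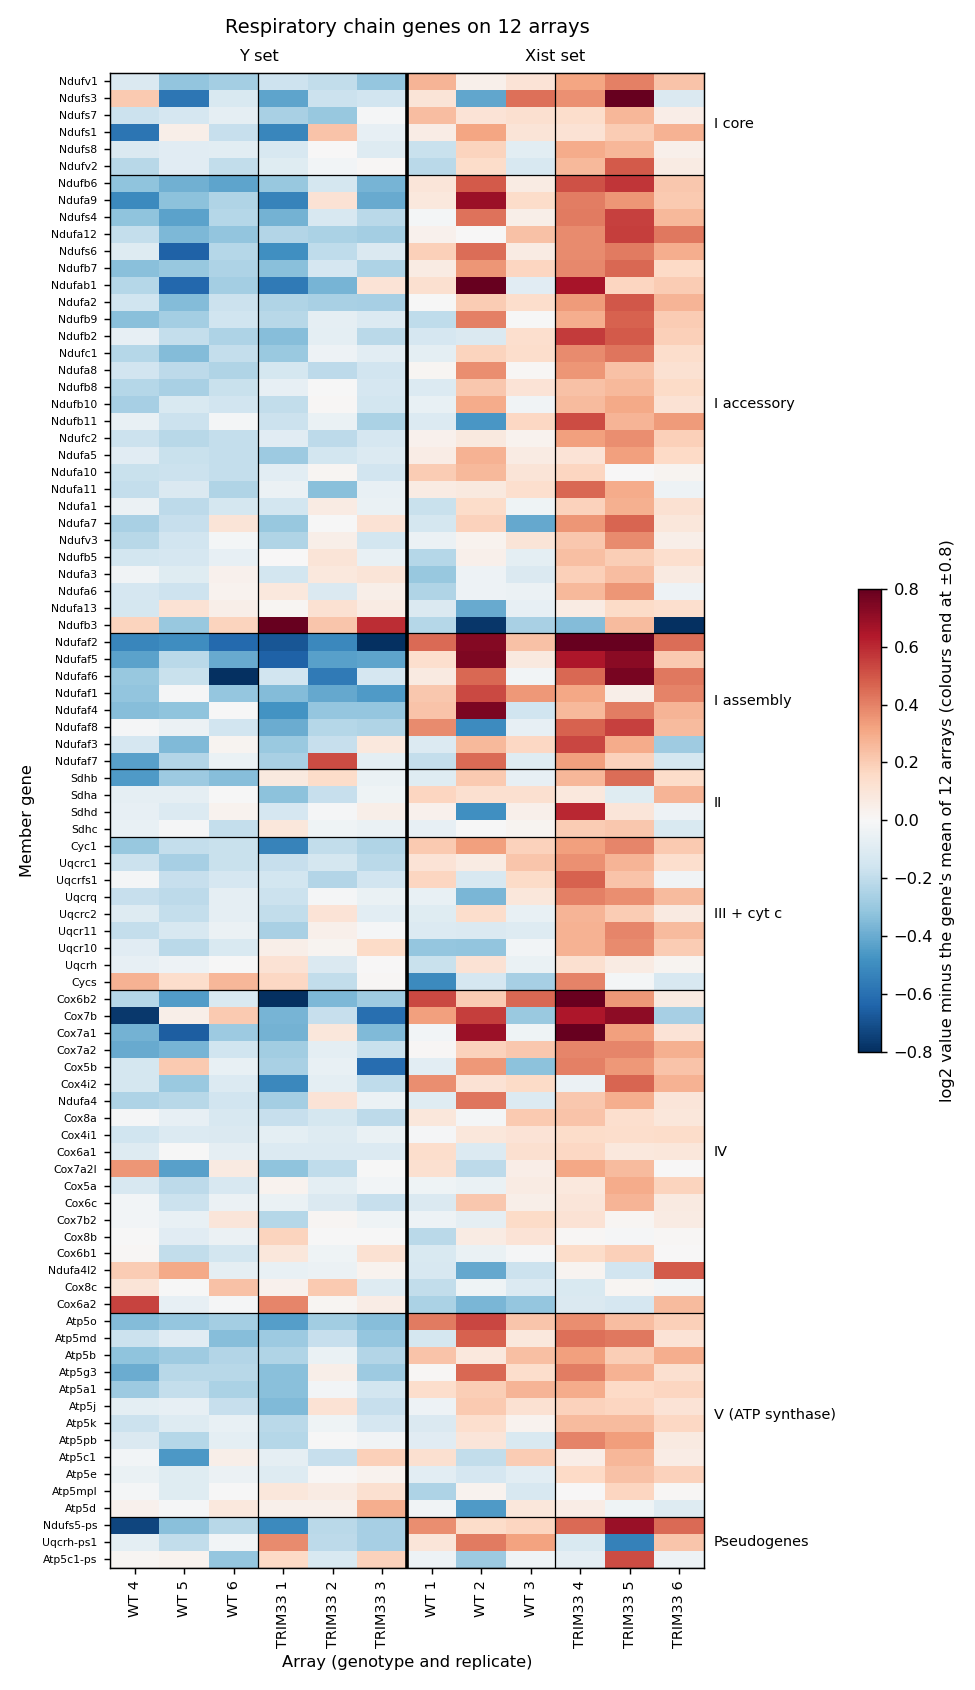
Each row is a respiratory chain gene and each column an array, ordered by array set and genotype, and the colour gives the log2 value minus that gene's mean over the 12 arrays. TRIM33 replicates 4 and 5 are red in most rows and the Y-set arrays mostly blue, with Ndufb3 running the other way.

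The array medians show how unevenly the genotypes differed. Taking each member's deviation from its own 12-array mean, the median over members was 0.29, 0.28 and 0.14 in TRIM33 replicates 4, 5 and 6 and -0.03, 0.13 and 0.07 in WT replicates 1, 2 and 3, all of the Xist set. In the Y set it was -0.22, -0.08 and -0.11 in TRIM33 replicates 1, 2 and 3 and -0.15, -0.19 and -0.13 in WT replicates 4, 5 and 6. TRIM33 replicates 4 and 5 thus stood highest, while in the Y set the genotypes overlapped. Of the 88 members, 40 had their highest value of all 12 arrays in TRIM33 replicate 5, 22 in TRIM33 replicate 4 and 15 in WT replicate 2. The lowest value fell in TRIM33 replicate 1 for 19 members, in WT replicate 5 for 19, in WT replicate 4 for 12 and in WT replicate 2 for 11. WT replicate 2 thus held many extremes of both kinds.

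Within the Xist set 82 of 88 members were higher in TRIM33, with a median difference of 0.18, and within the Y set 58 of 88, with a median of 0.05. Over all genes the medians were -0.02 and -0.01. Every TRIM33 array lay above every WT array of the same set for 21 members in the Xist set (23.9%, against 4.41% of all genes) and 0 lay below (against 5.86%). In the Y set 9 lay above (10.2%, against 4.61%). The 4 below, Ndufaf1, Ndufaf8, Cox6a1 and Cox8a, were 4.55% of members, near the 5.43% of all genes. Both sets showed this for 4 members, Uqcr10, Ndufb5, Cox4i1 and Cox5a, where 0.412% of all genes did. Uqcr10 was the member in which every TRIM33 array exceeded every WT array over all 12, as in 0.103% of all genes.

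The difference between the sets was tested directly as an interaction of genotype and array set. No member passed (lowest adjusted p = 0.996), where 0.0043% of all genes did. At an unadjusted p under 0.05, 7 members had a larger TRIM33 minus WT difference in the Xist set and 0 a smaller one, against 2.03% of all genes with a larger one and 2.19% with a smaller one. They were Ndufb11, Ndufb2, Ndufaf8, Cycs, Uqcr11, Cox5b and Ndufa4l2. Ndufb11, an accessory subunit encoded on the X chromosome, differed by 0.52 in the Xist set and -0.08 in the Y set, and the assembly factor Ndufaf8 by 0.49 and -0.22. In both, WT replicate 2 was the lowest Xist-set array. It read 6.96 for Ndufb11, with WT replicates 1 and 3 at 7.32 and 7.60, and 7.64 for Ndufaf8, with those at 8.52 and 8.08. Markers of other cells also differed in sign between genotypes, with 0 of each list past the adjusted threshold. All 7 markers of Ly6C-low monocytes and all 5 of natural killer cells had lower means in TRIM33, with median differences of -0.28 and -0.24. Of 11 neutrophil markers 8 were higher, with a median difference of 0.09 in the Xist set and 0.28 in the Y set, and of 14 cell cycle genes 12 were higher, with medians of -0.02 and 0.15. In the Y set TRIM33 replicate 2 stood apart on both lists: the median deviation of its neutrophil markers was -0.13, against -1.18 and -1.05 on the other TRIM33 arrays, and that of its cell cycle genes -1.51, against -2.44 on both. Their part in the members' differences was not tested.

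**Figure D2:**
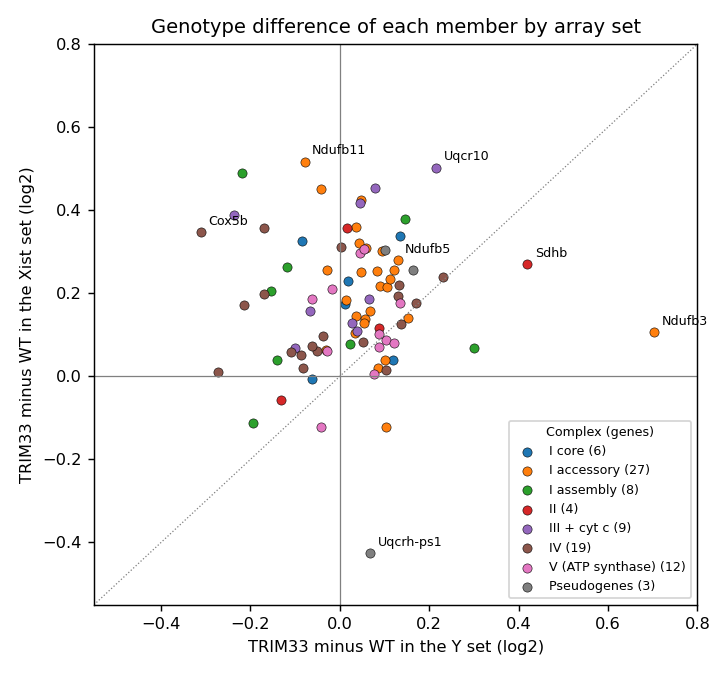
Each point is a respiratory chain gene, placed by its TRIM33 minus WT difference of mean log2 values in the Y set (horizontal) and in the Xist set (vertical), 3 arrays against 3 in each, and coloured by complex. Most points lie above 0 on the vertical axis (82 of 88) and fewer lie right of 0 on the horizontal axis (58 of 88).

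Among the 9 genes of complex III and cytochrome c, 8 were higher in TRIM33 and 3 had an unadjusted p under 0.05, Uqcr10, Uqcrq and Uqcr11, all small subunits of the complex. Uqcr10 read 9.999, 9.98 and 10.11 in the TRIM33 arrays of the Y set against 9.86, 9.74 and 9.84 in the WT arrays, and 10.23, 10.34 and 10.16 against 9.65, 9.64 and 9.93 in the Xist set. Genotypes did not overlap in either set, and the lowest TRIM33 array, at 9.98, lay above the highest WT array, at 9.93. The mean difference was 0.36 on the log2 scale (SE 0.0749; limma unadjusted p = 0.00115, adjusted p = 1.0), from 9.78 ± 0.121 to 10.13 ± 0.138 (SD, n = 6). Uqcrq, named for its link to ubiquinone binding, differed by 0.27 (SE 0.118), by 0.45 in the Xist set and 0.08 in the Y set. Uqcr11 read 10.13 to 10.15 in the WT and 10.50 to 10.64 in the TRIM33 arrays of the Xist set, a difference of 0.42. In the Y set it overlapped between genotypes and differed by 0.05. In the fit without the block, differences of the redox subunits were within their SE, which takes in the gap between the array sets. Cyc1, cytochrome c1, differed by -0.02 (SE 0.185, and 0.0686 with the block) and Uqcrfs1, the Rieske iron-sulfur protein, by 0.05 (SE 0.129). Cycs, cytochrome c itself, differed by 0.39 in the Xist set and -0.24 in the Y set. Cytochrome c has many processed pseudogenes, so this feature is uncertain.

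Complex II, succinate dehydrogenase, has 4 subunits, of which Sdhb had the lowest p. Sdhb, the iron-sulfur subunit, read 10.42, 10.48 and 10.29 in the TRIM33 arrays of the Y set against 9.89, 10.05 and 9.997 in the WT arrays. In the Xist set it read 10.61, 10.79 and 10.49 against 10.24, 10.55 and 10.28. Genotypes were apart in the Y set and overlapped in the Xist set through WT replicate 2, at 10.55. The mean difference was 0.34 (SE 0.120; limma unadjusted p = 0.0129, adjusted p = 1.0; with the block SE 0.0753 and adjusted p = 0.471). Sdhd, a membrane anchor, differed by 0.19 (SE 0.136), with TRIM33 replicate 4 at 9.19 and WT replicate 2 at 8.10 and the other 10 arrays within 8.46 to 8.69. Sdhc, the other anchor, differed by 0.10 (SE 0.0651). Without TRIM33 replicate 4 the Sdhd difference was 0.08, and without WT replicate 2 it was 0.11. Sdha, the flavoprotein that oxidises succinate, differed by -0.09 (SE 0.0958, and 0.0659 with the block).

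**Figure D3:**
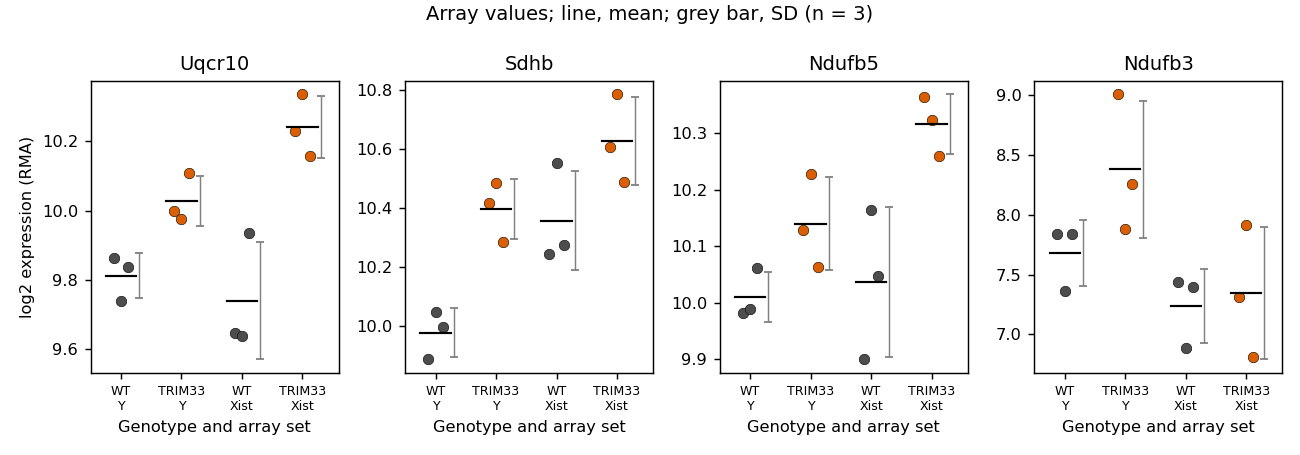
Log2 values of Uqcr10, Sdhb, Ndufb5 and Ndufb3 on each array, by genotype and array set (Y or Xist), with the mean as a line and the SD of 3 arrays as a grey bar; each panel has its own axis, which does not start at 0. The 6 TRIM33 arrays of Uqcr10 lie above the 6 WT arrays, and the 9.01 of Ndufb3 in TRIM33 replicate 1 stands above the other arrays.

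Complex I accessory subunits, which surround and stabilise the catalytic core, were higher in TRIM33 in 26 of 27 members, with a median difference of 0.15. Ndufb5, a membrane arm subunit, read 10.13, 10.23 and 10.06 in TRIM33 against 9.98, 9.99 and 10.06 in WT arrays of the Y set. In the Xist set it read 10.36, 10.32 and 10.26 against 9.90, 10.16 and 10.05. TRIM33 arrays lay above WT arrays within each set, with 10.063 against 10.061 at the closest pair in the Y set. The mean difference was 0.20 (SE 0.0594; limma unadjusted p = 0.0194, adjusted p = 1.0). Ndufa3, a membrane arm subunit, differed by 0.18 (SE 0.0723), by 0.32 in the Xist set and 0.04 in the Y set. Ndufa12 differed by 0.36 in the Xist set, where TRIM33 read 11.32 to 11.49 and WT 10.94 to 11.18, and by 0.04 in the Y set. Ndufb3, another membrane arm subunit, had the largest difference of all members, 0.40, but with an SE of 0.343, and differed by 0.11 in the Xist set and 0.70 in the Y set. Its values in the Y set were 9.01, 7.88 and 8.26 in TRIM33 and 7.84, 7.36 and 7.84 in WT arrays, and TRIM33 replicate 1 stood highest. The mean difference was 0.18 without TRIM33 replicate 1 and 0.62 without TRIM33 replicate 6. Ndufa10 was the accessory subunit below 0, at -0.01 (SE 0.0959).

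Among the 6 complex I core subunits, most of which carry the flavin or iron-sulfur clusters, 5 were higher in TRIM33. Ndufv2, of the NADH-oxidising module, differed by 0.24 (SE 0.106; limma unadjusted p = 0.0494), with 8.67 to 9.04 in WT and 8.79 to 9.38 in TRIM33 arrays. Its genotypes overlapped, with WT replicate 2 at 9.04 and WT replicate 5, at 8.80, above the lowest TRIM33 array. Ndufs8, an iron-sulfur subunit near the quinone site, differed by 0.12 (SE 0.0897), by 0.23 in the Xist set and 0.02 in the Y set. Of the 8 assembly factors, which build complex I and leave it, 6 were higher and 0 had an unadjusted p under 0.05 in limma. Ndufaf6 differed by 0.26 (SE 0.265) and Ndufaf7, which methylates a core subunit, by 0.18 (SE 0.174), both within the spread between arrays of both sets. With the block the SEs were 0.147 and 0.173.

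Complex IV, cytochrome c oxidase, had 14 of 19 members higher in TRIM33 with a median of 0.03. All 19 were higher within the Xist set (median 0.13) and 8 within the Y set (median -0.05). Cox6b1, which lies on the cytochrome c side of the enzyme, read 10.22 to 10.42 in WT and 10.38 to 10.61 in TRIM33 arrays, a difference of 0.17 (SE 0.0483; limma unadjusted p = 0.0283). Cox5a, a subunit on the matrix side, differed by 0.16 (SE 0.0682), with 9.86 to 9.94 in WT and 9.99 to 10.10 in TRIM33 arrays of the Y set. In the Xist set it read 10.02 to 10.13 in WT and 10.15 to 10.37 in TRIM33 arrays, so the genotypes were apart in each set and overlapped over all 12 arrays. Cox4i1, the subunit that binds ATP, followed the same pattern with a difference of 0.07 (SE 0.0686).

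Complex V had 11 of 12 members higher, with a median of 0.10. Atp5e, the epsilon subunit of the central stalk, read 11.76 to 11.85 in all 6 WT arrays and 11.79 to 12.13 in the TRIM33 arrays. In the Xist set alone it differed by 0.30 and in the Y set by 0.05, for a mean difference of 0.17 (SE 0.0540; limma unadjusted p = 0.0370). Atp5mpl, a small membrane subunit, differed by 0.16 (SE 0.0501; limma unadjusted p = 0.0477) and had its genotypes apart in the Y set. In the fit without the block the catalytic subunits differed by less than their SE, Atp5a1 by 0.04 (SE 0.140) and Atp5b by 0.10 (SE 0.150). The gap between the array sets, given for both below, adds to these SEs. Atp5o, the stalk subunit that joins the catalytic head to the membrane part, was the member below 0, at -0.08 (SE 0.217).

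Several subunits of complexes IV and V have tissue isoforms. Cox6a1, Cox7a2 and Cox8a, the forms of most tissues, read 12.05 to 12.33, 9.36 to 10.16 and 10.53 to 10.97 over the 12 arrays. The heart and muscle forms Cox6a2, Cox7a1 and Cox8b read 5.01 to 5.91, 4.35 to 5.92 and 3.06 to 3.45, and the testis forms Cox7b2 and Cox8c 1.82 to 2.20 and 2.91 to 3.34. Levels of different probe sets cannot be set against each other, so these are given as each feature's own range. Of the 88 members 82 had a mean above the median gene mean of 4.24, and those that did not were Cox7b2, Cox8b, Cox8c, Ndufa4l2, Atp5c1-ps and Uqcrh-ps1. The testis form Cox6b2 was not dim and lay above 4.24 on every array, with its values given below. No isoform feature passed limma (0 of them; of this group Cox6b1 had an unadjusted p under 0.05), with differences from -0.13 for Cox6b2, known from testis, to 0.23 for Cox7a1. Cox7a2l, which helps join complexes III and IV, differed by 0.01 (SE 0.151), and Atp5g3, of the rotating ring, by 0.08 (SE 0.176).

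The array sets also differed in the members. The sets came from sex-linked genes, and their difference is described without a test. For 79 of 88 members the Xist-set median was higher, with a median gap of 0.30 on the log2 scale and a range from -0.51 to 1.17, where the median gap over all genes was 0.00. Every Xist-set array lay above every Y-set array for 26 members (29.5%, against 7.45% of all genes), and for 0 did every array lie below (against 6.59%). Among all genes with a mean above the median gene mean, which most members share, the shares were 13.9% and 12.6%. In complex I the share above was 50% of the assembly factors, 37.0% of the accessory and 33.3% of the core subunits. It was 0% in complex II, 22.2% in complex III with cytochrome c, 21.1% in complex IV and 25% in complex V. Lists this short give imprecise shares. The 3 members on the X chromosome, Ndufa1, Ndufb11 and Cox7b, were not among the 26.

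**Figure D4:**
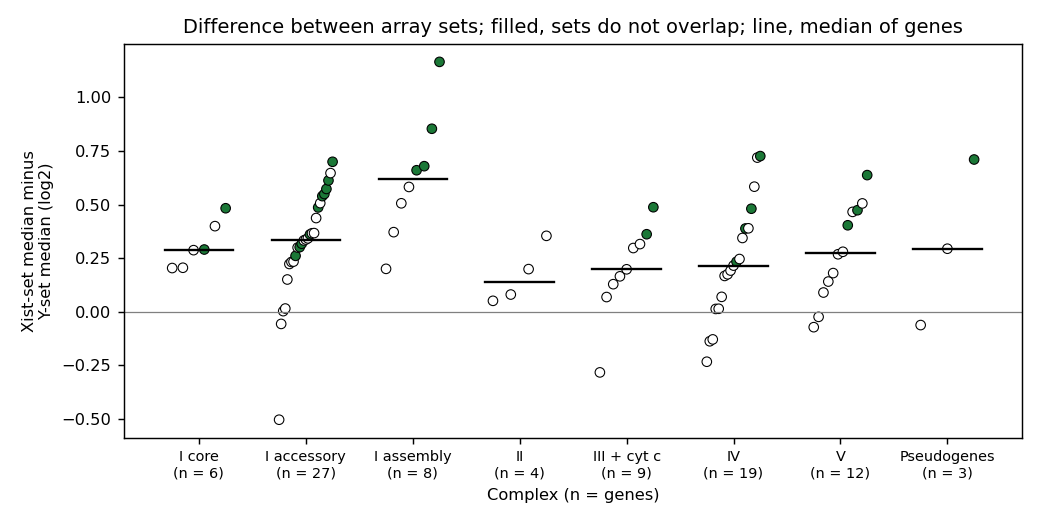
Each circle is a respiratory chain gene, grouped by complex, at its Xist-set median minus its Y-set median on the log2 scale; filled circles are genes in which the 6 arrays of the sets do not overlap, and the line is the median of the genes. Filled circles number 26, all above 0, and the assembly factors of complex I have the highest median, 0.62.

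The assembly factors of complex I had the largest median gap, 0.62, and all 8 were higher in the Xist set, 4 of them without overlap. Ndufaf2, an assembly factor related to Ndufa12, had the widest gap of all members, 1.17. It read 7.38, 7.43 and 6.97 in TRIM33 and 6.97, 7.25 and 6.75 in WT arrays of the Xist set, against 5.83, 6.00 and 5.72 and 6.00, 6.02 and 5.89 in the Y set. The sets were far apart for both genotypes. Ndufaf5, which hydroxylates a core subunit during assembly, read 6.94 to 7.60 against 6.21 to 6.64, and Ndufaf6 5.52 to 6.30 against 4.73 to 5.41. Ndufaf1, a factor for the membrane arm, was the fourth without overlap, with a gap of 0.66.

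Of the accessory subunits 25 of 27 were higher in the Xist set and 10 without overlap: Ndufb6, Ndufs4, Ndufa12, Ndufs6, Ndufb7, Ndufa2, Ndufa8, Ndufc2, Ndufa5 and Ndufa11, with gaps from 0.70 down to 0.26. Ndufb6, a membrane arm subunit, read 10.01 to 10.51 in the Xist set against 9.52 to 9.80 in the Y set. Ndufa9, which lies beside the quinone site, had a gap of 0.65 and overlapped through TRIM33 replicate 2, at 8.98 in the Y set against 8.95 to 9.55 in the Xist set. Ndufb3 ran the other way at -0.51, with 6.81 to 7.92 in the Xist set against 7.36 to 9.01 in the Y set. In the core, Ndufv1, which binds NADH and the flavin, read 8.77 to 9.13 against 8.42 to 8.62, and Ndufs7, of the quinone module, was also without overlap. Ndufs3 had a gap of 0.40 but overlapped, at 4.11 to 5.39 against 3.95 to 4.73, near the median gene mean.

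Complex II had the lowest median gap, 0.14, and 0 of 4 members without overlap. Sdhb had a gap of 0.35 and Sdha one of 0.20, with Sdha at 9.15 to 9.51 in the Xist set against 8.91 to 9.23 in the Y set. In complex III the median gap was 0.20 and 2 of 9 members did not overlap. These were Cyc1, at 8.87 to 9.08 against 8.15 to 8.51, and Uqcrc1, a core protein, at 9.27 to 9.57 against 8.93 to 9.06. Uqcr10, which led the genotype comparison, had a gap of 0.13. Cycs had the reverse sign, at -0.28.

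In complex IV the median gap was 0.21, and Cox6b2, Cox7a2, Cox4i2 and Cox4i1 did not overlap. Cox6b2 read 8.19 to 8.91 in the Xist set against 7.15 to 7.99 in the Y set. Cox4i2, known from lung and from low oxygen, read 4.53 to 5.04 against 4.06 to 4.50, near the median gene mean. Cox7b had a gap of 0.72 with overlap. In complex V the median gap was 0.27, and the catalytic subunits Atp5a1 and Atp5b (gaps 0.40 and 0.47) and Atp5o (0.64) did not overlap. Atp5o read 10.34 to 10.68 against 9.71 to 9.88, and Atp5md, a small membrane subunit, had a gap of 0.51 with overlap. Of the pseudogene features Ndufs5-ps, at 7.48 to 8.03 against 6.60 to 7.12, did not overlap. A probe for such a copy can read the parent gene's RNA, so it is uncertain.

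**Figure D5:**
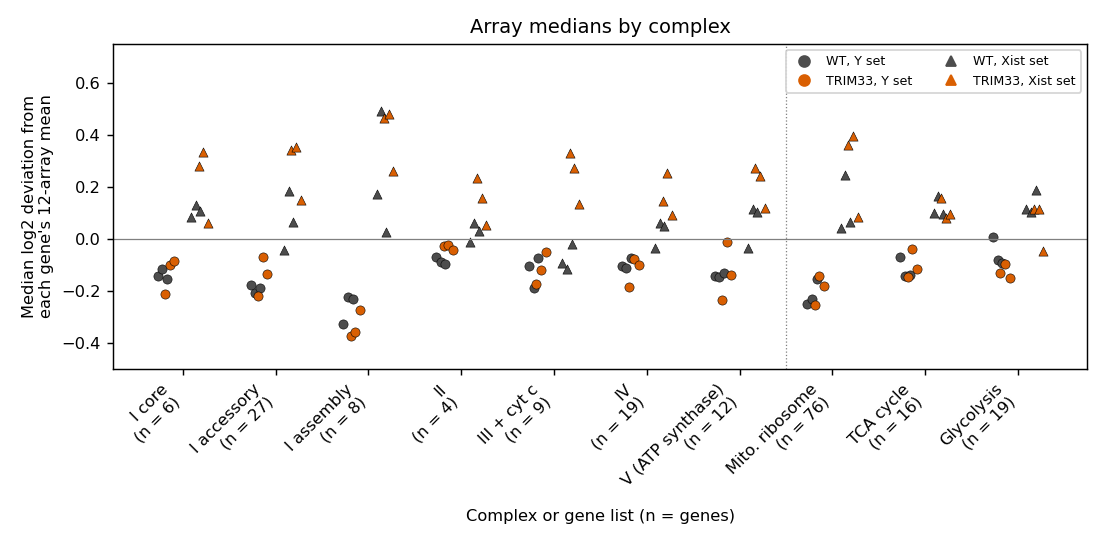
For each complex or gene list on the horizontal axis, a point per array gives the median over its genes of the log2 deviation from each gene's own 12-array mean; circles are Y-set and triangles Xist-set arrays, grey is WT and orange TRIM33. For the complex I assembly factors, Y-set arrays lie between -0.37 and -0.22 and Xist-set arrays between 0.03 and 0.49.

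Markers of other cells differed between the sets as well. Of 3 measured erythroid genes 2 were lower on every Xist-set array, and their mean log2 level was 3.16 to 3.78 in the Xist set against 7.52 to 8.61 in the Y set. For 5 platelet markers, 3 of them lower without overlap, it was 3.90 to 4.06 against 4.99 to 6.49. For 11 neutrophil and granule markers, 7 of them higher without overlap, it was 7.26 to 7.81 against 5.07 to 6.14. Markers of Ly6C-low monocytes, 4 of 7 lower without overlap, read 7.02 to 7.48 against 8.28 to 9.18, and Ly6C-high markers 10.6 to 10.7 against 11.0 to 11.3. The part of these cells and of the cell cycle in the members' gaps was not tested.

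Other genes of mitochondrial metabolism were taken in the same way. Of 76 measured genes of the mitochondrial ribosome, which translates the subunits encoded in the organelle, 31 were higher in the Xist set without overlap and 0 lower, with a median gap of 0.40. The 31 were 40.8% of the list, against 7.45% of all genes and 13.9% of those above the median gene mean. Between genotypes 58 were higher in TRIM33 with a median of 0.08, 65 of 76 in the Xist set and 41 in the Y set, and 0 passed limma. At an unadjusted p under 0.05, 2 were higher without the block (2.63%, against 1.27% of all genes) and 13 with it (17.1%, against 2.44%). Of 36 measured assembly and copper delivery factors 5 were higher in the Xist set without overlap (Bcs1l, Lyrm7, Coa7, Timmdc1 and Acad9), with a median gap of 0.23. At 13.9% this share is that of all genes above the median gene mean, as 35 of the 36 are. Bcs1l, which inserts the Rieske protein into complex III, had a gap of 0.82. Between genotypes 24 were higher and 12 lower.

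Of 16 measured genes of the tricarboxylic acid cycle and pyruvate dehydrogenase, which feed the chain, 4 (25%) were higher in the Xist set without overlap. The share was 7.45% of all genes and 13.9% of those above the median gene mean, as 15 of the 16 are. A list this short gives an imprecise share. Idh3a, a subunit of isocitrate dehydrogenase, read 5.89 to 6.71 against 4.67 to 5.37, and Fh1, fumarase, 8.74 to 9.27 against 8.08 to 8.60. The RNA of citrate synthase, Cs, had a gap of 0.03, with 9.17 to 9.47 against 9.08 to 9.44. Of 14 biogenesis regulators, Myc (6.90 to 7.30 against 5.15 to 6.12), Tfb1m (6.12 to 6.86 against 5.19 to 6.05) and Nrf1 (7.18 to 7.49 against 6.73 to 7.15) were higher without overlap. Their share of the list, 21.4%, stands against the same 7.45% and 13.9%. Ppargc1a, the coactivator known for driving mitochondrial biogenesis, read 2.09 to 2.53 against 2.21 to 2.83, below the median gene mean. Between genotypes 12 of the 16 cycle genes were higher in TRIM33, 7 in the Xist set (median -0.03) and 11 in the Y set (median 0.11). Of the regulators 5 of 14 were higher, and 0 of either list passed limma, with 0 at an unadjusted p under 0.05 with or without the block.

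Promoter motifs and set gaps could be put side by side for the 67 members with a promoter and a mean above the median gene mean. The median gap was 0.27 for the 10 members with an NRF1 core and 0.33 for the 57 without one. For the ETS core it was 0.27 in 17 members and 0.33 in 50, and for YY1 0.35 in 10 and 0.32 in 57. These are descriptions of windows that share base composition, and no test was run on them.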

How the data were processed

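Total RNA (RNeasy Mini kit) was amplified from 900 pg with the NuGEN Ovation Pico V2 protocol, per the labels' protocols. One protocol field names CD4 T cells as the sorted population, against monocytes in the source names and design text; the latter were followed. The authors deposited log2 expression per feature, made with RMA and Partek per the submitters' processing notes, which give no versions. RMA equalises arrays and compresses differences of dim genes.

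Of 24479 features, 23281 carried 1 symbol and 1198 none. The brighter feature was kept for 2 repeated symbols, leaving 23279 genes. RefSeq numbers matched 23156 features and changed 0 symbols.

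Genotype was tested for each gene in limma 3.58.1 (lmFit, eBayes; R 4.3.3) over all 12 arrays, with Benjamini-Hochberg adjustment over all genes and a threshold of 0.05. Alternatives added the array set as blocking term, took each set by itself, or tested the interaction. Others were quantile normalization, median centring, a filter on dim genes, array weights, the mixes left out and each array left out. SEs are from the fit without the block unless stated. The fits were tested on simulated data. A simulated log2 change of 0.5 was recovered in 36% of changed genes without the block, 52% with it and 4% for the interaction. False calls numbered 1, 11 and 8 in these fits. The members' mean genotype differences were at most 0.40, so a member that did not pass may still differ. Arrays were placed in sets by Xist against Eif2s3y, Kdm5d and Uty. Members, lists, sets and alternatives were chosen with earlier results of these data known.

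Named genes were Sdhb, Ndufb5 and Uqcr10, the 2 members per complex with the smallest genotype p and the 2 with the widest set gap, isoform groups, and outlying arrays. Uqcr11, Ndufa12, Cox7a2, Cox4i1, Ndufb3 and other genes outside this rule were named after their values were seen. Motif matches were exact. Figures used matplotlib 3.10.9 in Python 3.11.15.

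Replicate numbers follow accession order and pair no samples. The mix numbers 1 and 2 are shared by a TRIM33 and a WT array each. For the arrays numbered 1, the correlation over genes of deviations from the mean of each genotype's mixes was 0.118. With 2 mixes per genotype the arrays numbered 2 give the same value.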

Additional observations from a re-analysis of the deposited data

Results flagged for a closer look

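The 44 named members were screened for an array far from the other 5 of its genotype, 88 groups in all. In 7 of the groups 1 array stood apart by Dixon's criterion. For values from 1 normal population chance flags about 1 in 20 groups. Here each group held 3 arrays of either set, and the members share arrays, so that rate need not hold. WT replicate 2 accounts for 4 of the 7. It read 9.04 for Ndufv2, with the other WT arrays at 8.67 to 8.80, and 9.52 for Ndufs8, with the others at 9.16 to 9.26. It also read 11.2 for Ndufa4, a complex IV subunit, with the others at 10.5 to 10.6, and 8.10 for Sdhd, with the others at 8.48 to 8.64. Sdhd stood apart in TRIM33 replicate 4 too, at 9.19 against 8.46 to 8.69. The dim muscle isoform Cox8b read 3.45 in TRIM33 replicate 1 against 3.26 to 3.28, and Ndufa4l2, known as a gene induced by low oxygen, read 3.85 in TRIM33 replicate 6 against 3.20 to 3.38. Both lie below the median gene mean.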

How the results depend on the processing

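No member passed limma in the main fit or in any alternative run. Of all 88 members, 6 were lower in TRIM33 in the Xist set alone and 30 in the Y set alone. The 19 members named in the genotype comparison were mostly chosen for a small p or after their values were seen. For none of these 19 did the difference change sign over 37 settings, which that choice in part fixed. Over these, the adjusted p of Uqcr10 ranged from 0.450 to 1 and that of Sdhb from 0.256 to 1. Leaving out single arrays also moved Ndufs8, Ndufaf6, Ndufaf7, Ndufa12, Cox7a2 and Cox4i1 by over 1.5 times, without a change of sign. In fits without the block, leaving out an array also left the genotypes unequal between the sets. The count of genes past the threshold was 5. It became 9 with the array set as a block, 3 in the Xist set alone, 8 in the Y set alone, 0 among the arrays not titled as mixes and 9 among those with the set as a block. With single arrays left out it ranged from 5 to 9 (without TRIM33 replicate 4) without the block and from 9 to 15 with it (15 without TRIM33 replicate 4, 12 without TRIM33 replicate 3, and 10 on leaving out any of TRIM33 replicates 1, 5 and 6 and WT replicates 1 and 5). The members' median difference ranged from 0.06 to 0.16 with single arrays left out, and 62 to 83 of the 88 members were higher in TRIM33. Members without overlap between the sets numbered 30 after quantile normalization, 25 after median centring, 26 to 34 with single arrays left out and 47 among the arrays not titled as mixes, where fewer arrays remain to overlap. With the mix number as a replicate block 6 genes and 0 members passed; the mixes share only a number. Signal near background limits the dim isoforms and pseudogene features.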

Other observations

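Glycolysis genes divided between the array sets. Of 19 measured, 5 were higher in the Xist set without overlap (Hk3, Pfkp, Tpi1, Pgk1 and Slc16a1, a lactate carrier, with gaps from 0.34 to 0.91) and 2 were lower. These are 26.3% and 10.5% of the list, against 13.9% and 12.6% of all genes above the median gene mean. The lower ones were Pfkfb3, which makes the activator of phosphofructokinase, at 5.26 to 5.91 (Xist set) against 6.07 to 7.04 (Y set), and Slc2a1, the glucose transporter, at 8.43 to 8.88 and 8.98 to 9.22. Between genotypes 10 were higher in TRIM33 and 9 lower, with a median of 0.02.

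Of 8 measured genes for uncoupling and other entries to the chain, 2 (25%) were higher in the Xist set without overlap, against 7.45% of all genes and 13.9% of those above the median gene mean. Etfa and Etfb, the electron transfer flavoprotein that carries electrons from fatty acid oxidation to ubiquinone, were these 2. Etfa read 9.16 to 9.57 (Xist set) against 8.76 to 9.09 (Y set), and Etfb 9.85 to 10.37 against 9.15 to 9.54. Between genotypes they differed by 0.19 and 0.20. In limma blocked on array set the SEs were 0.0644 and 0.0815 and the adjusted p 0.928 and 0.936. Without the block the SEs were 0.180 and 0.263.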
